A study of Homo sapiens with 18 samples.

Results

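Heat shock and endoplasmic reticulum (ER) chaperone genes were followed as a set of 46 genes in BxPC-3 cells, an established human pancreatic cancer line. They were listed by symbol, with earlier results of these data known, and in the gene name table used each symbol led to 1 Ensembl identifier, so that 46 of the 58395 lines of the count table entered. Every one of the 46 passed the filter on low counts, which 16794 genes passed. HSF1, which lacks a chaperone function of its own, is counted with them as their regulator. By place of action 26 belong to the cytosol, the nucleus or the mitochondria and 20 to the ER.

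Cells received the vehicle (phosphate-buffered saline), hepatocyte growth factor (HGF) at 80 ng/ml or macrophage-stimulating protein (MSP) at 100 ng/ml, and RNA was collected after 1 h or 4 h. HGF binds MET, a receptor tyrosine kinase, and MSP binds RON, its closest relative. Each of the 6 combinations had 3 libraries, 18 in all, and every group, controls included, was the same line kept in RPMI with fetal bovine serum, Penicillin-Streptomycin and Plasmocin. The labels speak of triplicates without saying that the cultures were separate, so the p-values rest on the spread between these libraries alone, and that spread may be technical.

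Chaperones bind unfolded or partly folded proteins and help them reach or keep their shape. In the cytosol and nucleus, HSP70 proteins work with J-proteins that deliver substrates, with nucleotide exchange factors, and with HSP90, which finishes clients such as kinases and steroid receptors. The transcription factor HSF1 drives many of these genes through heat shock elements, which are inverted repeats of a short GAA unit. In the ER a separate circuit, the unfolded protein response (UPR), senses unfolded protein through IRE1, PERK and ATF6 and raises ER chaperones through ATF6 and XBP1, in part through the ER stress element. Genes of both circuits are expressed in growing, secreting epithelial cells without any stress.

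Promoter windows of RefSeq on GRCh38.p14, from 250 bases before to 50 after a start site, were at hand for 43 of the 46 genes. HSF1, HSPA14 and PDIA3 had none. A heat shock element of 3 units, written GAANNTTCNNGAA or TTCNNGAANNTTC and searched on both strands, was found in 7 of the 43 genes (16.3%) and in 0.49% of all 35116 windows. A gene was counted if any of its windows matched, so shares of genes and of windows are unlike measures. These 7 stretches are shown because they belong to the genes for HSP70, HSP90, their partners and the mitochondrial chaperonin whose values follow below. Capitals mark the matched units, and each stretch runs 5′ to 3′ on the strand of its gene.
HSPA8, chr11:123062342-123062378, minus strand: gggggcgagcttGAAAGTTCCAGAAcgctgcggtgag
DNAJA1, chr9:33025264-33025300, plus strand: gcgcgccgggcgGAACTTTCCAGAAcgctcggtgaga
DNAJB6, chr7:157336861-157336897, plus strand: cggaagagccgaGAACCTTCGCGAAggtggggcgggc
HSP90AA1, chr14:102087108-102087144, minus strand: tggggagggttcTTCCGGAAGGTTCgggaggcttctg
HSP90AB1, chr6:44247766-44247855, plus strand: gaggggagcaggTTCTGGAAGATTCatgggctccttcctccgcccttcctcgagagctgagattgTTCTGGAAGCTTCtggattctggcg
CHORDC1, chr11:90223075-90223121, minus strand: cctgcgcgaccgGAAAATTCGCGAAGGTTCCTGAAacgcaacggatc
HSPD1, chr2:197500056-197500090, minus strand: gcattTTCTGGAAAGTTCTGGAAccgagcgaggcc
The element of DNAJA1 lies at positions 3 to 15 after the start site and the others lie before it. HSPA8 has 2 matches, of which the stretch above holds the farther one. Its 250 bases before the start site hold both, the first beginning at position -230 and the second ending at position -43.
HSPA8, chr11:123062137-123062386, minus strand: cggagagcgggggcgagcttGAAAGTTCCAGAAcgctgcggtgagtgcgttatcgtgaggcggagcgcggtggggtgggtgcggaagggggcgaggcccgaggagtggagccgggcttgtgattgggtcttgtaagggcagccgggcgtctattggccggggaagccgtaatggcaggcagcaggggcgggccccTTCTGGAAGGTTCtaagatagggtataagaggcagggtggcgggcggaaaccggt
The ER stress element, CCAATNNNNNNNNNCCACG on either strand, was found in 7 of the 43 genes (16.3%) and in 0.0769% of all windows. All 7 are ER genes, and their stretches are shown with the element in capitals. HSP90B1 holds 2 matches, of which 1 is shown.
HSPA5, chr9:125241379-125241421, minus strand: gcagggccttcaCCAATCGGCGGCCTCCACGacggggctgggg
HSP90B1, chr12:103930204-103930246, plus strand: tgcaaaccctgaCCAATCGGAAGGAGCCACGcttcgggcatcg
CRELD2, chr22:49918542-49918584, plus strand: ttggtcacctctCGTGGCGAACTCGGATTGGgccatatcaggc
CALR, chr19:12938372-12938414, plus strand: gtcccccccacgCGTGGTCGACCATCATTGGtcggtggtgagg
CANX, chr5:179698766-179698808, plus strand: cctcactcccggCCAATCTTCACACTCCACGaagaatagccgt
PDIA6, chr2:10812841-10812883, minus strand: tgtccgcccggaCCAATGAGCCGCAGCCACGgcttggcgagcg
XBP1, chr22:28800591-28800633, minus strand: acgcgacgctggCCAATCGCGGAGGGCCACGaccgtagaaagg
HSPA5, the gene for the main ER HSP70, is also given with its 250 bases before the start site, where the element spans positions -66 to -48.
HSPA5, chr9:125241344-125241593, minus strand: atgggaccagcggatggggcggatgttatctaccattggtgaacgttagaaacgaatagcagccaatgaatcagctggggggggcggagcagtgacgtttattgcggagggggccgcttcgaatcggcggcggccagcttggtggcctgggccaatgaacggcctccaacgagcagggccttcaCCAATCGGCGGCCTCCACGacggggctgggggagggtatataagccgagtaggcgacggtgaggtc
The shorter heat shock element of 2 units (GAANNTTC or TTCNNGAA), which the longer one contains, was in 18 of 43 genes (41.9%) and in 13.5% of all windows. TGACGTGG, the core bound by ATF6 and XBP1, was found in HYOU1 alone among the members (0.729% of all windows). TGACGTCA, the cyclic AMP response element, was found in HSP90AB1 alone among them (1.85% of all windows). The AP-1 site TGANTCA was found in STIP1, BAG3 and HSPA5 and in 7.71% of all windows. These matches are descriptions of sequence in 1 window per start site and say nothing of factor binding in these cells.

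Library totals ran from 30556613 to 48477215 counts. Levels are given as CPM, counts per 1000000 counts of library size, with that size scaled by TMM factors, which estimate the size of a library from genes that change little, and are given as mean ± SD over 3 libraries. The factors were 0.841 to 0.86 in the HGF libraries at 4 h, 0.98 to 0.985 in those at 1 h and 1.032 to 1.068 in all others. The choice of scaling therefore moves every HGF value. When library totals replaced the TMM factors, the median of the log2 fold changes over all genes tested moved from 0.00 to -0.11 at 1 h and from -0.06 to -0.35 at 4 h after HGF, and the calls this scaling ends or turns are given below for HGF and MSP against vehicle. The 7 ductal epithelial markers (keratins KRT7, KRT8, KRT18 and KRT19, EPCAM, CDH1 and MUC1) summed to between 5505 and 6504 CPM of library totals, and SMAD4, which is deleted in this line, had 0 counts in all 18 libraries. The 3 acinar markers summed to at most 0.721 CPM and of the 2 islet markers GCG was at 0 everywhere. The 5 fibroblast markers summed to 9.82 to 13.4 CPM. The 6 leukocyte and endothelial markers summed to 7.36 to 8.74 CPM in the vehicle libraries at 4 h and to 3.17 to 3.54 CPM in the HGF libraries at 4 h. VWF had the widest range of these markers, 0.854 to 6.60 CPM over the 18 libraries, and each of the others stayed at or below 1.71 CPM. The part of these markers in the results was not tested. In these bulk libraries a change in the number of responding cells and a change of RNA per cell cannot be told apart.

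Most of the set was abundantly transcribed in vehicle-treated cells at 1 h. The median over the 46 genes was 147 CPM, against 13.0 CPM over all genes tested, and 41 of them lay above that median. The range ran from 0.948 ± 0.196 CPM for DNAJB4 to 1366 ± 59.3 CPM for HSP90AA1, the inducible cytosolic HSP90. Per kilobase of exon (GENCODE 29), which allows genes to be compared, HSPB1, the small heat shock protein HSP27, stood highest at 377 ± 9.74 CPM per kb. HSP90AB1 (264 ± 10.7), HSP90AA1 (260.3 ± 11.3) and the ER lectin chaperone CALR (255 ± 9.47 CPM per kb) came next and did not differ from each other beyond their spread. HSPA5, the ER HSP70 known as BiP, followed at 196 ± 6.07 CPM per kb. At the low end were CRELD2 (1.88 ± 0.0685), HSPE1 (1.08 ± 0.132) and DNAJB4 (0.251 ± 0.0519 CPM per kb), the last with 12 to 51 counts per library. The place of HSPE1 is uncertain. Its exons overlap HSPD1 on the opposite strand (14.2% of their length) and HSPE1-MOB4 on the same strand (9.7%), and reads may be assigned elsewhere. Together the 46 genes held 1.27% ± 0.0282 of all counts in vehicle at 1 h and 1.42% ± 0.0291 at 4 h.

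**Figure D1:**
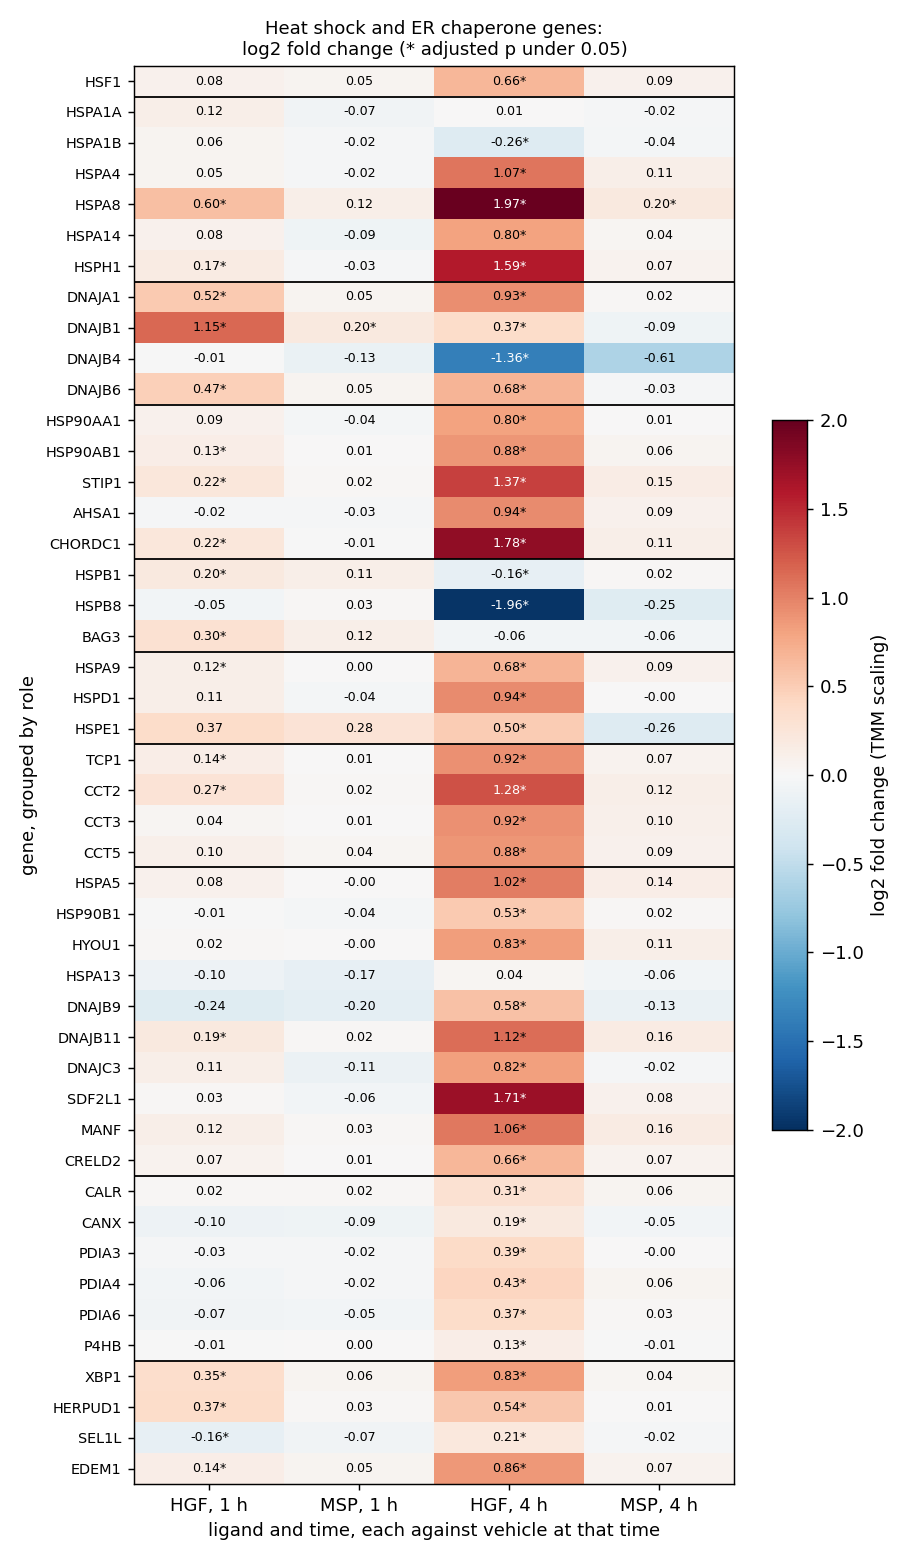
Log2 fold change (TMM scaling) of each of the 46 genes (vertical axis, grouped by role between the black lines) for HGF and MSP at 1 h and 4 h, each against the vehicle of the same time (horizontal axis). An asterisk marks an adjusted p under 0.05 in edgeR. The HGF column at 4 h has 39 genes higher and 4 lower, and each MSP column has 1 called gene.

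At 1 h the largest HGF responses of the set were those of 3 J-proteins and the constitutive HSP70. DNAJB1, the HSP40 that brings substrates to HSP70 and also binds HSF1, rose 2.23-fold, and HSPA8, DNAJA1 and DNAJB6 rose 1.51-fold, 1.43-fold and 1.38-fold. In the ER the UPR factor XBP1 and the degradation factor HERPUD1 rose 1.27-fold and 1.29-fold, whereas no lectin chaperone or disulfide isomerase passed the test. In all 17 of the 46 genes (37.0%) were higher and 1 (2.2%) was lower, where 13.8% of all genes tested were higher and 7.16% lower. The median log2 fold change was 0.10 over the 46 genes and 0.00 over all genes tested.

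DNAJB1 (ENSG00000132002, chr19:14514770-14529770, minus strand, GRCh38 as are all gene bounds here, from GENCODE 29) stood at 125, 125 and 123 CPM in the vehicle libraries and at 283, 279 and 268 CPM after HGF. All 3 HGF libraries were above all 3 vehicle libraries, with a log2 fold change of 1.15 (SE 0.04, edgeR adjusted p 9.69e-21). Its exons overlap those of TECR on the opposite strand over 5.7% of their length. HSPA8 (ENSG00000109971, chr11:123057489-123063230, minus strand), the HSP70 that cells make without stress and that also uncoats clathrin vesicles, went from 537, 568 and 491 CPM to 799.8, 825 and 792 CPM. The groups did not overlap, and the log2 fold change was 0.60 (SE 0.05, edgeR adjusted p 1.59e-11). DNAJA1, a farnesylated J-protein of the cytosol, had 161, 172 and 156 CPM in vehicle and 227, 239 and 235 CPM after HGF, a log2 fold change of 0.52 (SE 0.04, edgeR adjusted p 1.02e-11). DNAJB6, which keeps aggregation-prone proteins soluble, had 145, 136 and 144 CPM in vehicle and 198, 194 and 195 CPM after HGF, a log2 fold change of 0.47 (SE 0.04, edgeR adjusted p 3.88e-11). In both genes the libraries of the groups were fully apart. DNAJB4 was the J-protein that did not pass, at 0.948 ± 0.196 and 0.941 ± 0.0253 CPM.

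The textbook heat-inducible HSP70 genes did not follow DNAJB1. HSPA1A had 65.8, 67.0 and 64.8 CPM in vehicle and 72.6, 73.8 and 68.4 CPM after HGF for 1 h, a log2 fold change of 0.12 (SE 0.05, edgeR adjusted p 0.081). Its near-identical neighbour HSPA1B had 69.3, 68.1 and 64.6 CPM in vehicle and 69.2, 74.4 and 67.7 CPM after HGF, a log2 fold change of 0.06 (SE 0.05, edgeR adjusted p 0.408). Reads that fit both genes could be split between them by the counting, so the pair is uncertain gene by gene. The exons of HSPA1B also overlap AL671762.1, a processed transcript on the same strand without a line in the count table, over 36.5% of their length. HSF1 itself had 88.2, 85.6 and 84.7 CPM in vehicle and 95.8, 88.5 and 88.9 CPM after HGF, and its log2 fold change of 0.08 (SE 0.05, edgeR adjusted p 0.318) did not pass the test. In HSPA1A and HSF1 the HGF libraries lay just above the vehicle libraries without overlap, and in HSPA1B the groups overlapped. Among the other cytosolic genes HSPH1, an HSP110 that reloads HSP70 with ATP, rose with a log2 fold change of 0.17 (SE 0.05). Its vehicle libraries had 134, 141 and 128 CPM and its HGF libraries 147, 156 and 152 CPM.

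HSP90AA1 had 1365, 1426 and 1307 CPM in vehicle and 1415, 1502 and 1448 CPM after HGF at 1 h, with overlapping libraries and a log2 fold change of 0.09 (SE 0.04, edgeR adjusted p 0.119). HSP90AB1, the constitutive HSP90, and its cochaperones STIP1, which bridges HSP70 to HSP90, and CHORDC1 rose with log2 fold changes of 0.13, 0.22 and 0.22. BAG3, a nucleotide exchange factor of HSP70 that directs clients to autophagy, rose from 285, 281 and 274 CPM to 353, 343 and 338 CPM, a log2 fold change of 0.30 (SE 0.04, edgeR adjusted p 1.63e-07). HSPB1 rose by 0.20 and the chaperonin subunits CCT2 and TCP1 by 0.27 and 0.14 on the log2 scale. HSPA9, the mitochondrial HSP70, was the last cytosolic or mitochondrial gene called, with a log2 fold change of 0.12, and did not pass with no filter (edgeR adjusted p 0.133). The chaperonin subunit CCT5, at 0.10 (SE 0.04, edgeR adjusted p 0.0514), fell just short. It passed in edgeR without robust estimation (adjusted p 0.0473) and with a replicate block (0.0438), and in DESeq2 (adjusted p 0.0245).

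Among the 20 ER genes 4 (20.0%) were higher and 1 (5.0%) was lower at 1 h, beside 13.8% and 7.16% of all genes tested. XBP1, whose spliced product is the transcription factor of the IRE1 branch, had 83.9, 79.8 and 77.7 CPM in vehicle and 106, 102 and 100.4 CPM after HGF, a log2 fold change of 0.35 (SE 0.04, edgeR adjusted p 1.8e-07). Gene counts do not separate its spliced from its unspliced form. HERPUD1, which recruits the ubiquitin ligase of ER-associated degradation, had 53.7, 53.6 and 53.5 CPM in vehicle and 69.5, 72.2 and 66.2 CPM after HGF, a log2 fold change of 0.37 (SE 0.05, edgeR adjusted p 1.64e-07). In XBP1 and HERPUD1 every HGF library was above every vehicle library. DNAJB11, a luminal partner of BiP, rose by 0.19 on the log2 scale and EDEM1, which hands glycoproteins to degradation, by 0.14. SEL1L, the adaptor of the degradation ligase, had 157, 143 and 145 CPM in vehicle and 123, 133 and 141 CPM after HGF and passed as lower with a log2 fold change of -0.16 (SE 0.06, edgeR adjusted p 0.0485). That call was lost without robust estimation (edgeR adjusted p 0.052) and that of EDEM1 was lost with DESeq2 (adjusted p 0.0622).

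In the fit of all 18 libraries with TMM factors and the filter on low counts, the main ER chaperones did not pass at this time. HSPA5 had 789, 772 and 742 CPM in vehicle and 807, 819 and 812 CPM after HGF at 1 h, a small step up without overlap and a log2 fold change of 0.08 (SE 0.04, edgeR adjusted p 0.149). HSP90B1, the ER HSP90 known as GRP94, had 753, 752 and 714 CPM in vehicle and 718, 745 and 741 CPM after HGF, a log2 fold change of -0.01 (SE 0.04, edgeR adjusted p 0.91). DNAJB9, the J-protein ERdj4 that returns IRE1 to its resting state, had 13.5, 12.6 and 11.3 CPM in vehicle and 10.1, 11.7 and 9.92 CPM after HGF, overlapping groups with a log2 fold change of -0.24 (SE 0.10, edgeR adjusted p 0.104). With library totals HSP90B1 was lower at 1 h, at -0.11 (edgeR adjusted p 0.0196), and so was DNAJB9, at -0.34 (edgeR adjusted p 0.0118). DNAJB9 was also lower with TMM factors and no filter (-0.26, edgeR adjusted p 0.033) and with only the groups compared (-0.25, edgeR adjusted p 0.0413). The 6 lectin chaperones and disulfide isomerases had log2 fold changes from -0.10 to 0.02. None passed in edgeR with TMM factors and the filter, in DESeq2 or at an unadjusted p under 0.05 (0 of 6 each). With TMM factors and no filter CANX was lower in edgeR (-0.12, adjusted p 0.0343). With library totals 5 of these 6 were lower in edgeR, at -0.20 for CANX (adjusted p 0.00251), -0.13 for PDIA3 (0.00536), -0.16 for PDIA4 (0.0023), -0.17 for PDIA6 (0.000837) and -0.11 for P4HB (0.0358).

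Much of the 1 h count rested on small changes. Without replicate 3 of the vehicle at 1 h, 11 genes were higher and 0 lower. HSPH1, HSP90AB1, CHORDC1, HSPA9, DNAJB11 and EDEM1 were the 6 that lost their call without it, with edgeR adjusted p from 0.0607 to 0.145. HSPH1, HSP90AB1 and CHORDC1 also lost theirs without replicate 2 of HGF, CHORDC1 without replicate 1 of the vehicle, TCP1 without replicate 2 of the vehicle (edgeR adjusted p 0.0575), and HSPA9 and EDEM1 without any 1 of the 6 libraries. SEL1L lost its call without replicate 1 or 3 of the vehicle or replicate 1 or 2 of HGF (edgeR adjusted p 0.0511 to 0.253). With library totals 9 (19.6%) were higher and 9 (19.6%) lower, 8 of the latter in the ER, beside 9.1% and 21.4% of all genes tested. The share of lower genes was thus near that of all genes. The share of higher among all called genes went from 65.8% to 29.8%. DNAJB1, HSPA8, DNAJA1, DNAJB6, STIP1, BAG3, CCT2, XBP1 and HERPUD1 were the 9 that were higher under both scalings. The 8 calls lost with library totals were those of HSPH1, HSP90AB1, CHORDC1, HSPB1, HSPA9, TCP1, DNAJB11 and EDEM1, at values from 0.02 (HSPA9) to 0.12 (CHORDC1). Besides SEL1L, HSP90B1, DNAJB9 and the 5 lectin and isomerase genes, AHSA1 was lower, at -0.12 (edgeR adjusted p 0.0442).

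**Figure D2:**
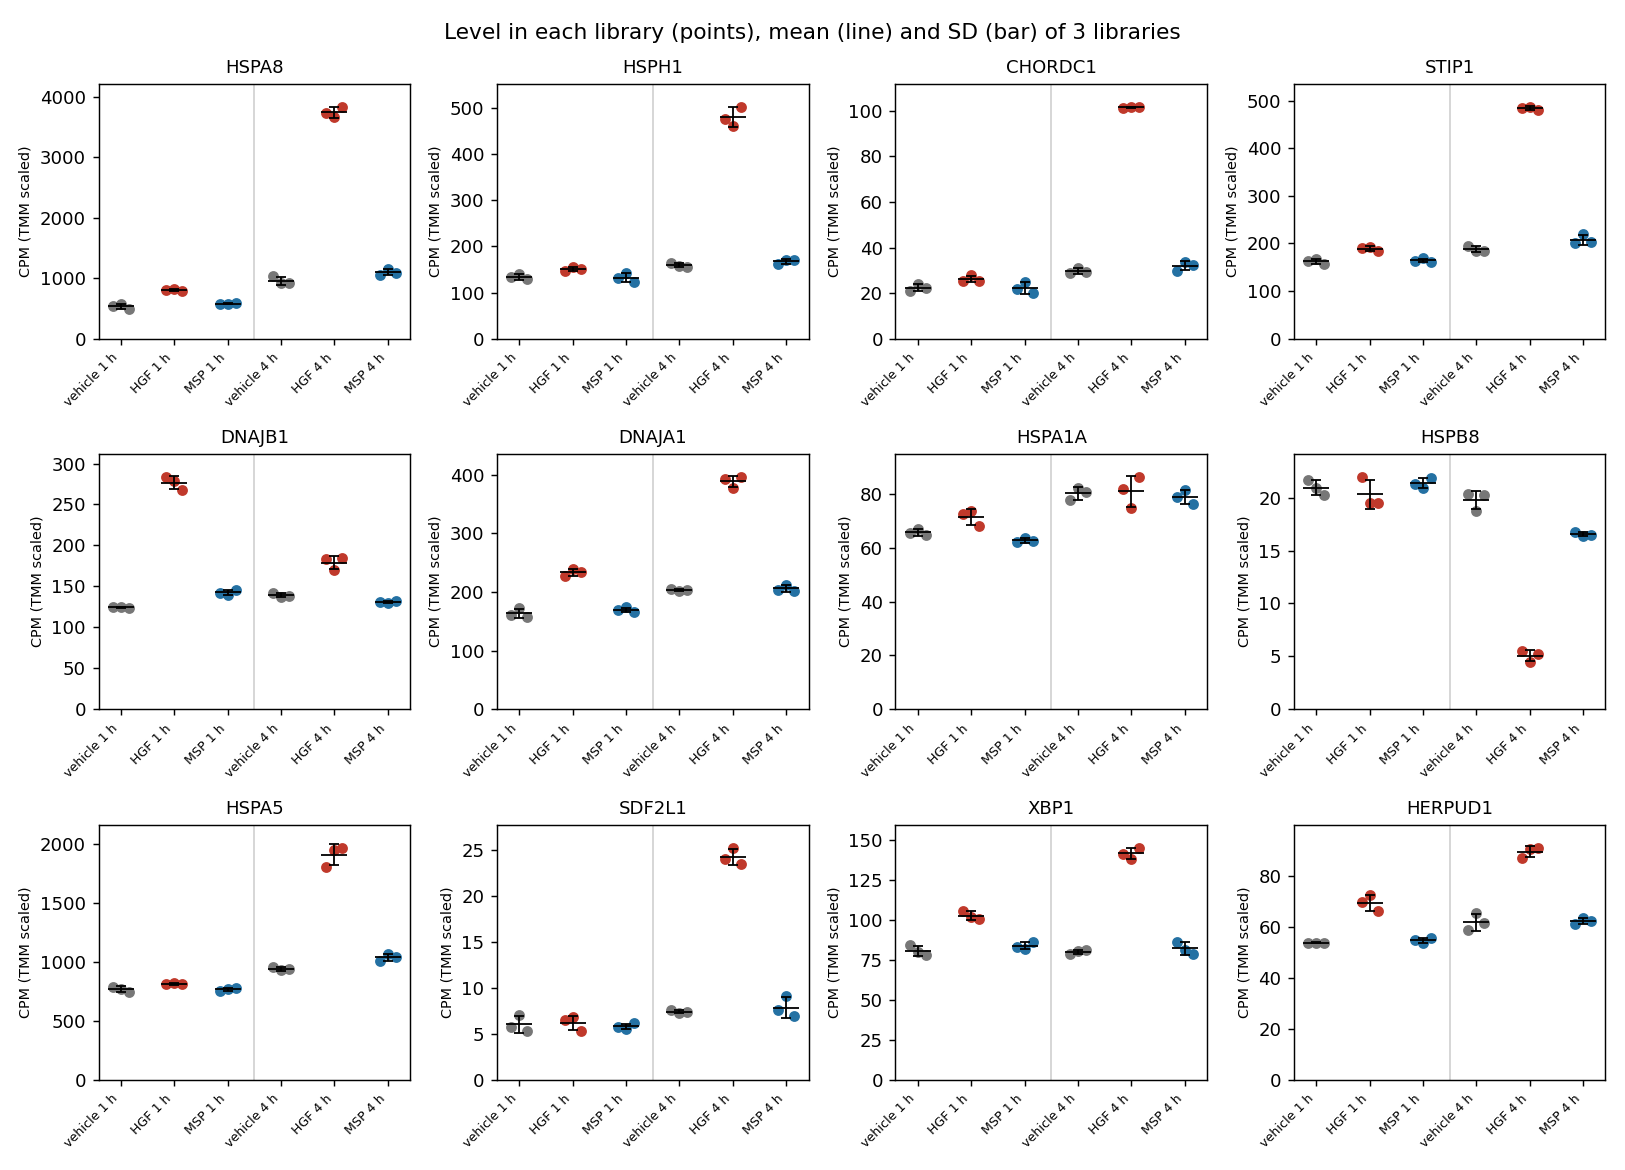
Level of 12 genes in each library (points, CPM with TMM scaling, vertical axis from 0) for vehicle, HGF and MSP at 1 h and 4 h (horizontal axis), with their mean (line) and SD (bar) over 3 libraries. HSPA8 reached 3741 ± 87.4 CPM in HGF at 4 h, DNAJB1 was highest in HGF at 1 h, and HSPB8 was lowest in HGF at 4 h.

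After 4 h of HGF nearly the whole set had moved, and mostly upward. HSPA8 rose 3.92-fold, the HSP90 cochaperone CHORDC1 3.43-fold, the BiP cofactor SDF2L1 3.27-fold, HSPH1 3.01-fold and STIP1 2.58-fold, and BiP itself (HSPA5) 2.03-fold. The small heat shock protein HSPB8 went the other way and fell 3.9-fold. Of the 46 genes 39 (84.8%) were higher and 4 (8.7%) were lower, where 33.1% of all genes tested were higher and 34.8% lower. The median log2 fold change was 0.74 over the 46 genes and -0.06 over all genes tested. Changes past 2-fold were seen upward in 10 genes (21.7%) and downward in 2 (4.3%), against 8.96% and 12.7% of all genes tested.

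Among the HSP70 and HSP110 genes 4 of 6 rose. HSPA8 went from 1028, 919 and 919 CPM in vehicle to 3736, 3656 and 3831 CPM, the largest log2 fold change of the 46 genes at 1.97 (SE 0.05, edgeR adjusted p 8.37e-25). HSPH1 (ENSG00000120694, chr13:31134974-31162388, minus strand) went from 164, 158 and 156 CPM to 477, 460.2 and 503 CPM, a log2 fold change of 1.59 (SE 0.05, edgeR adjusted p 9.43e-23). In each of these genes the lowest HGF library was more than 2-fold above the highest vehicle library. HSPA4, a second nucleotide exchange factor of the HSP110 kind, rose by 1.07 and HSPA14, a ribosome-associated HSP70, by 0.80 on the log2 scale. A second GENCODE gene model named HSPA14 overlaps the latter over 17.4% of its exon length on the same strand. HSPA8 has processed pseudogenes, and no source used here says how reads that fit several copies were counted.

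The stress-inducible pair stayed apart from this rise. HSPA1A had 77.9, 82.5 and 80.9 CPM in vehicle and 82.0, 74.9 and 86.4 CPM after HGF, overlapping groups with a log2 fold change of 0.01 (SE 0.05, edgeR adjusted p 0.823). HSPA1B had 82.3, 85.6 and 85.2 CPM in vehicle and 67.9, 70.0 and 73.6 CPM after HGF and was lower, with a log2 fold change of -0.26 (SE 0.05, edgeR adjusted p 2.47e-05) and no overlap. With library totals both were lower, at -0.28 for HSPA1A (edgeR adjusted p 8.06e-06) and -0.55 for HSPA1B. HSF1 rose from 101, 101 and 105 CPM to 157, 171 and 157 CPM, a log2 fold change of 0.66 (SE 0.05, edgeR adjusted p 6.33e-13). All 3 HGF libraries of HSF1 were above every vehicle library.

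Of the 4 J-proteins 3 rose and 1 fell. DNAJA1 went from 205, 202 and 204 CPM to 393, 378 and 396 CPM, a log2 fold change of 0.93 (SE 0.04, edgeR adjusted p 7.29e-19). DNAJB6 rose by 0.68 on the log2 scale. DNAJB1, the gene with the largest rise at 1 h, had 142, 137 and 139 CPM in vehicle and 184, 169 and 184 CPM after HGF at 4 h. Its log2 fold change was 0.37 (SE 0.04, edgeR adjusted p 2.41e-09), and with library totals it was 0.08 (edgeR adjusted p 0.095), so the call depended on the scaling. DNAJB4 fell from 1.39, 1.34 and 1.45 CPM to 0.647, 0.596 and 0.392 CPM, a log2 fold change of -1.36 (SE 0.25, edgeR adjusted p 2.3e-05) at the low counts given above.

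HSP90 and its cochaperones rose in 5 of 5 genes. HSP90AA1 went from 1552, 1458 and 1492 CPM to 2639, 2528 and 2688 CPM, a log2 fold change of 0.80 (SE 0.04, edgeR adjusted p 2.44e-17). CHORDC1 (ENSG00000110172, chr11:90201160-90223364, minus strand), which carries 3 overlapping heat shock element matches in its window, went from 28.6, 31.1 and 29.2 CPM to 101, 102 and 102 CPM. Its log2 fold change was 1.78 (SE 0.07, edgeR adjusted p 8.55e-21). STIP1 (ENSG00000168439, chr11:64185272-64204543, plus strand) went from 195, 184 and 185 CPM to 485, 487 and 481 CPM, a log2 fold change of 1.37 (SE 0.04, edgeR adjusted p 1.21e-22). For all 3 genes the HGF libraries lay above every vehicle library by far more than the spread within a group. AHSA1, the activator of the HSP90 ATPase, rose by 0.94 and HSP90AB1 by 0.88 on the log2 scale.

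The small heat shock proteins and BAG3 were the one class in which all log2 fold changes were negative at 4 h, and 2 of its 3 genes were lower. HSPB8, which works with BAG3 in the removal of misfolded protein by autophagy, had 20.3, 18.8 and 20.2 CPM in vehicle and 5.48, 4.50 and 5.22 CPM after HGF. HSPB8 (ENSG00000152137, chr12:119178642-119221131, plus strand) had the largest fall of the 46 genes, with a log2 fold change of -1.96 (SE 0.08, edgeR adjusted p 2.02e-19) and no overlap between groups. HSPB1 had 759, 812 and 767 CPM in vehicle and 674, 740.1 and 679 CPM after HGF, a log2 fold change of -0.16 (SE 0.05, edgeR adjusted p 0.00826), and this call was lost without replicate 2 of the vehicle (edgeR adjusted p 0.0512). BAG3 had 271, 280.1 and 277 CPM in vehicle and 258, 266 and 268 CPM after HGF and did not pass, with a log2 fold change of -0.06 (SE 0.04, edgeR adjusted p 0.131). All 3 HGF libraries of BAG3 were nevertheless below the vehicle libraries. BAG3 was lower with library totals, at -0.36 (edgeR adjusted p 2.76e-10), and with TMM factors and only the groups compared, at -0.08 (edgeR adjusted p 0.0396).

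All 3 mitochondrial chaperones and all 4 subunits of the cytosolic chaperonin TRiC were higher at 4 h. HSPD1, the mitochondrial chaperonin HSP60, rose by 0.94 and HSPA9 by 0.68 on the log2 scale. HSPE1, the lid of that chaperonin, rose by 0.50 and had 73 to 133 counts per library over all 18. It shares exon sequence with HSPD1 on the opposite strand over 14.2% of its length, so its counts are uncertain, and its call was lost with library totals (edgeR adjusted p 0.213). CCT2, a TRiC subunit that helps fold actin and tubulin, went from 201, 181 and 192 CPM to 456, 457 and 479 CPM, a log2 fold change of 1.28 (SE 0.04, edgeR adjusted p 3.61e-22). TCP1, CCT3 and CCT5 lay close together at 0.92, 0.92 and 0.88. TCP1 overlaps ACAT2 on the opposite strand over 8.1% of its exon length and CCT5 an antisense transcript over 30.1%.

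In the ER 19 of 20 genes (95.0%) were higher and 0 lower at 4 h with TMM factors, where 33.1% of all genes tested were higher and 34.8% lower. DESeq2 also gave 19 and 0, and 0 were lower at an unadjusted p under 0.05. With library totals 14 (70.0%) were higher and 2 (10.0%) lower, beside 21.2% and 52.0% of all genes tested. The median log2 fold change with TMM factors was 0.56 in the ER and 0.84 over the other 26 genes. HSPA5 (ENSG00000044574, chr9:125234853-125241330, minus strand) went from 959, 927 and 936 CPM to 1804, 1952 and 1968 CPM, a log2 fold change of 1.02 (SE 0.04, edgeR adjusted p 3.51e-20). HSP90B1 went from 813, 777 and 799 CPM to 1118, 1165 and 1179 CPM, a log2 fold change of 0.53 (SE 0.04, edgeR adjusted p 3.21e-13). The groups were apart in both genes. SDF2L1 (ENSG00000128228, chr22:21642261-21644298, plus strand), which holds the BiP and J-protein cycle on its substrates, went from 7.60, 7.25 and 7.35 CPM to 24.0, 25.2 and 23.5 CPM. Its log2 fold change of 1.71 (SE 0.10, edgeR adjusted p 1.86e-15) was the largest of the ER genes.

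Among the partners of BiP, DNAJB11 rose by 1.12, HYOU1, its exchange factor of the HSP110 kind, by 0.83, and DNAJC3, a J-protein also known as P58IPK, by 0.82 on the log2 scale. MANF, a secreted protein that binds BiP, rose by 1.06 and CRELD2, a secreted product of a UPR target gene, by 0.66. DNAJB9 had 10.3, 10.9 and 13.1 CPM in vehicle and 17.3, 16.8 and 17.2 CPM after HGF, a log2 fold change of 0.58 (SE 0.10, edgeR adjusted p 1.28e-05), whereas its value at 1 h had been -0.24. HSPA13, a microsomal HSP70, had 17.0 ± 1.05 and 17.5 ± 2.92 CPM and was the ER gene that did not pass, although with library totals it was lower, at -0.25 (edgeR adjusted p 0.0316).

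The lectin chaperones and disulfide isomerases had the smallest median of the ER classes. All 6 passed with TMM factors, with log2 fold changes from 0.13 for P4HB to 0.43 for PDIA4 and a median of 0.34. With library totals PDIA3 and PDIA4 stayed higher (0.10 and 0.14), CALR, PDIA6 and CANX did not pass, and P4HB was lower, at -0.16 (edgeR adjusted p 0.000745). The TMM call of P4HB was lost without replicate 2 of HGF (edgeR adjusted p 0.0659). CALR and CANX bind glycoproteins through their sugars, and PDIA3 works with them as their disulfide isomerase. Their levels were high throughout, as with CALR at 824, 765 and 759 CPM in vehicle and 959.7, 989 and 970.3 CPM after HGF. PDIA6 overlaps ATP6V1C2 on the opposite strand over 25.2% of its exon length, and PDIA3 overlaps ELL3 on the opposite strand over 14.8%.

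The UPR factor and the degradation genes rose in 4 of 4. XBP1 had 78.4, 80.3 and 80.8 CPM in vehicle and 141, 138 and 145 CPM after HGF, a log2 fold change of 0.83 (SE 0.04, edgeR adjusted p 1.08e-16). HERPUD1 had 58.5, 65.2 and 61.3 CPM in vehicle and 86.9, 90.4 and 90.9 CPM after HGF, a log2 fold change of 0.54 (SE 0.05, edgeR adjusted p 1.07e-11). EDEM1 rose by 0.86 and SEL1L by 0.21 on the log2 scale, the latter at -0.08 with library totals (edgeR adjusted p 0.217). In XBP1 and HERPUD1 no library of HGF overlapped the vehicle at either time.

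**Figure D3:**
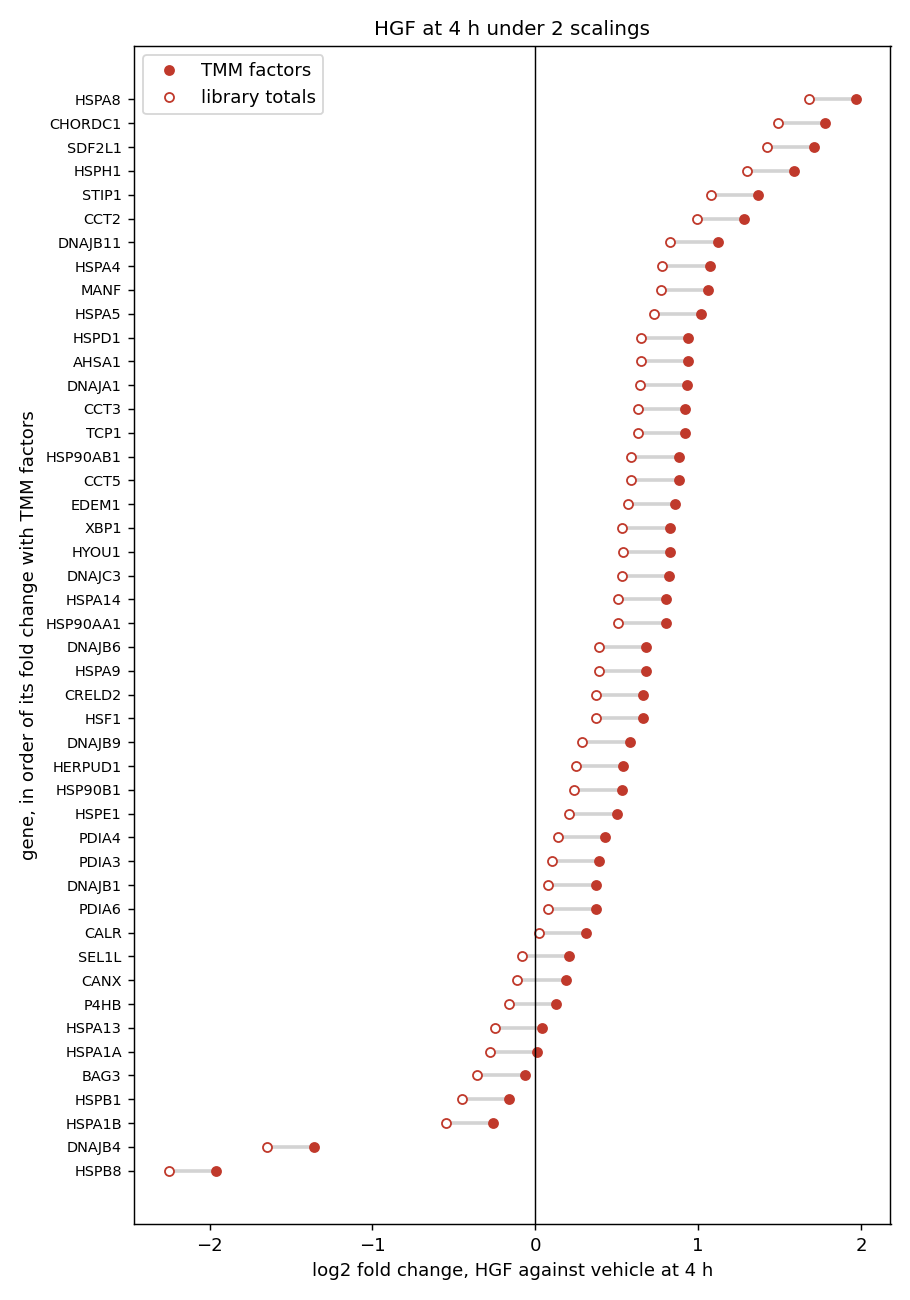
Log2 fold change of each gene for HGF against vehicle at 4 h (horizontal axis) with TMM factors (filled points) and with library totals (open points), genes in the order of their TMM value (vertical axis). Library totals lower every value by about the same amount, and 5 genes (SEL1L, CANX, P4HB, HSPA13 and HSPA1A) cross 0.

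Under library totals 32 genes (69.6%) were higher and 8 (17.4%) lower at 4 h, beside 21.2% and 52.0% of all genes tested. The median was 0.45 against -0.35 over all genes tested, and the share of higher among all called genes went from 48.7% to 28.9%. HSPA8, CHORDC1, SDF2L1, HSPH1 and STIP1 were at 1.68, 1.49, 1.42, 1.30 and 1.08.

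**Figure D4:**
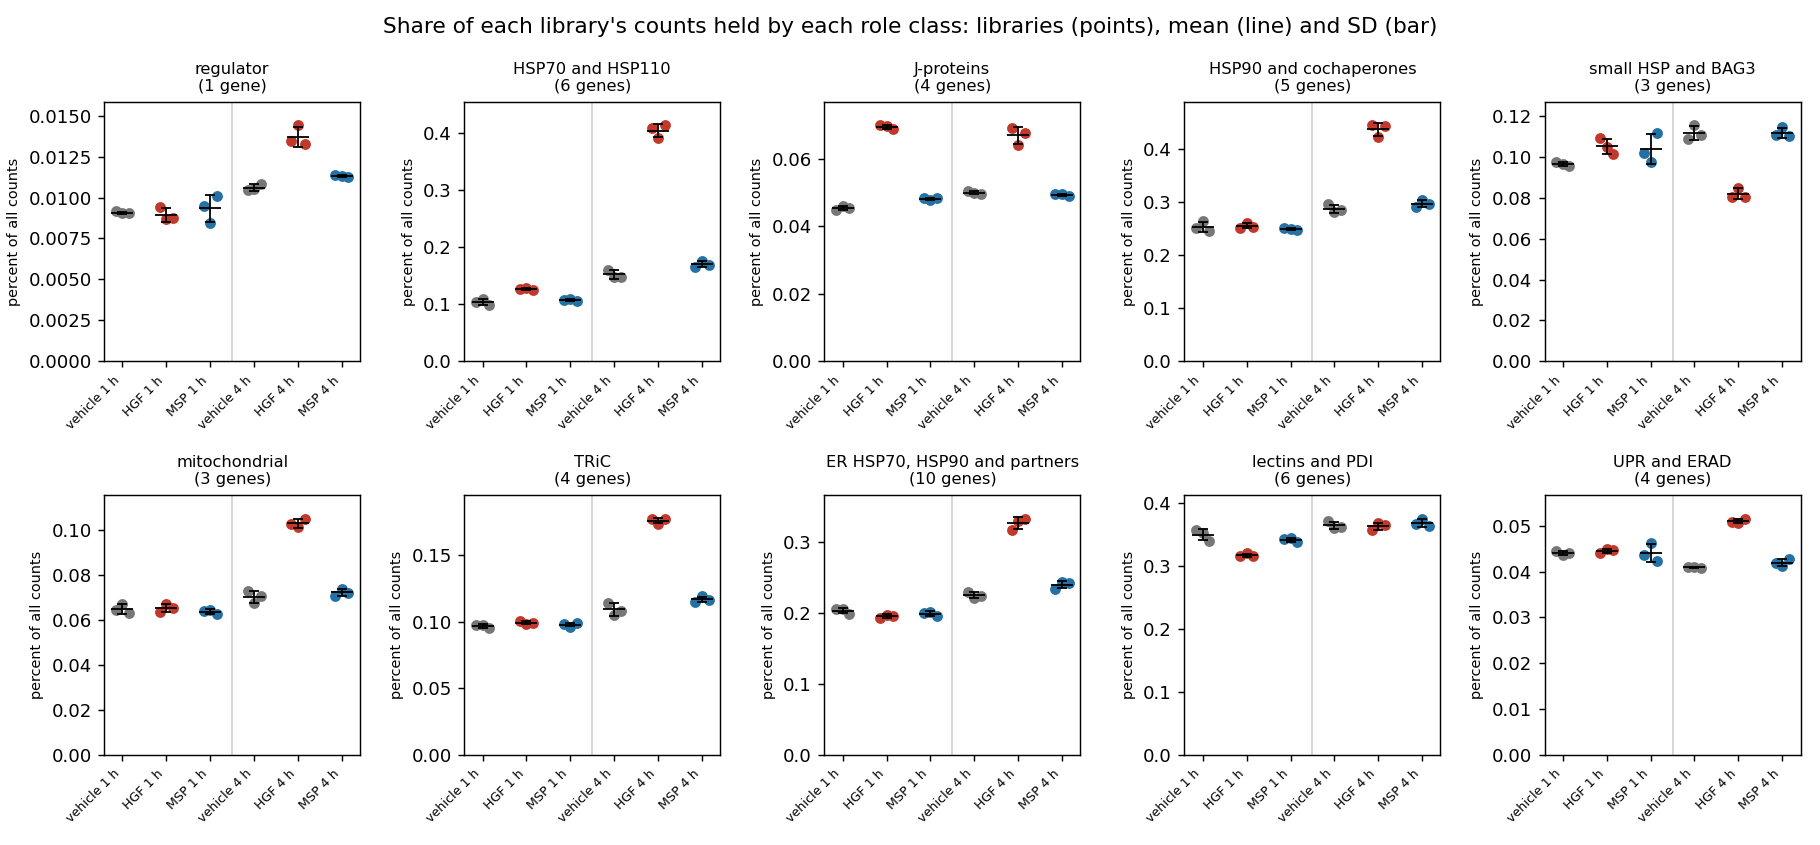
Share of all counts of a library held by each of the 10 role classes (vertical axis, percent, from 0) in each library (points) with their mean (line) and SD (bar) over 3 libraries, for vehicle, HGF and MSP at 1 h and 4 h (horizontal axis). The HSP70 and HSP110 class reached 0.404% of counts in HGF at 4 h, and the lectin and isomerase class had group means between 0.317% and 0.368%.

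Shares of counts need no TMM factor, but they are relative to the rest of a library and give no amount of transcript. The 46 genes went from 1.42% ± 0.0291 of all counts in vehicle at 4 h to 2.02% ± 0.0241 after HGF. The 6 HSP70 and HSP110 genes went from 0.152% ± 0.00719 to 0.404% ± 0.0116, and HSPA8 alone accounted for 0.218 of the 0.601 percentage points added by all 46. HSP90 and its cochaperones went from 0.288% ± 0.00741 to 0.437% ± 0.0116, TRiC from 0.109% ± 0.00480 to 0.176% ± 0.00217 and BiP with its partners from 0.225% ± 0.00435 to 0.327% ± 0.00846. In these classes the HGF libraries lay above all vehicle libraries. The lectin and isomerase class held 0.364% ± 0.00563 in vehicle and 0.362% ± 0.00584 after HGF, within the spread of the libraries. Small heat shock proteins and BAG3 went down from 0.112% ± 0.00345 to 0.0820% ± 0.00262, the only class whose HGF libraries were all below vehicle at 4 h.

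The HGF response differed between the times in most of the set. The difference of the response at 4 h minus that at 1 h, tested as the interaction of HGF with time, was positive in 36 genes and negative in 6, against 26.8% and 26.4% of all genes tested. It was largest for SDF2L1 at 1.68 (SE 0.15, edgeR adjusted p 7.82e-11), CHORDC1 at 1.56 (SE 0.09), HSPH1 at 1.41 (SE 0.07), HSPA8 at 1.37 (SE 0.07) and STIP1 at 1.15 (SE 0.06) on the log2 scale. Most negative were HSPB8 at -1.92 (SE 0.11) and DNAJB4 at -1.35 (SE 0.34). DNAJB1 came next at -0.79 (SE 0.06, edgeR adjusted p 4.77e-13), with 1.15 at 1 h and 0.37 at 4 h. BAG3 and HSPB1 had negative differences of -0.36 and -0.36. Among the early risers of the ER, XBP1 gained 0.48 from 1 h to 4 h and HERPUD1 0.17, and for HERPUD1 the difference did not pass with library totals (-0.02, edgeR adjusted p 0.792). The same held for DNAJB6, CALR, CANX and SEL1L, and HSPA1A was negative there. With library totals 31 (67.4%) were positive and 7 (15.2%) negative, beside 18.6% and 37.9% of all genes tested. The share of positive among all called genes went from 50.3% to 32.9%.

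**Figure D5:**
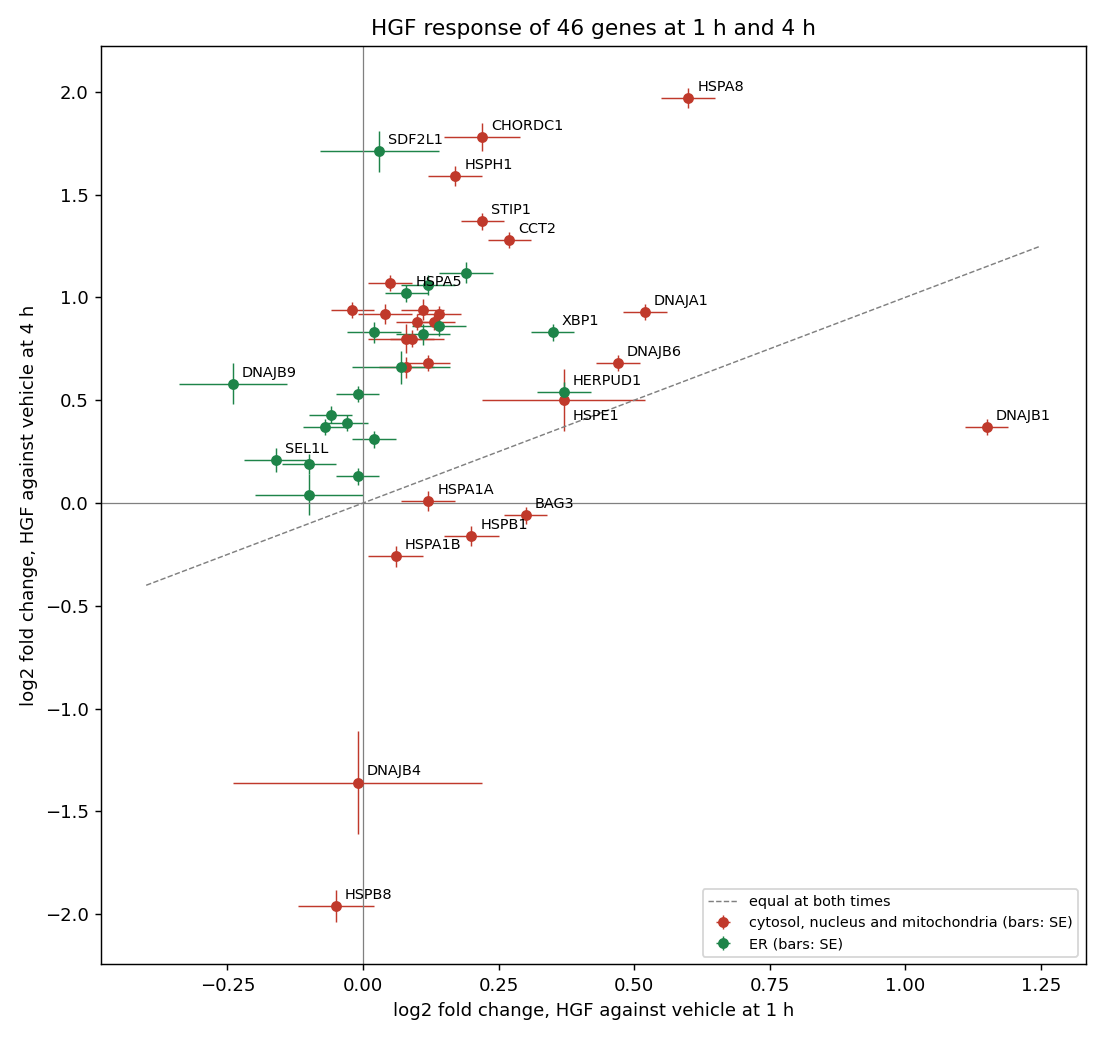
Log2 fold change for HGF against vehicle at 1 h (horizontal axis) and at 4 h (vertical axis) for the 46 genes, with SE bars, ER genes in green, the others in red and a dashed line of equal values. DNAJB1 lies far below the line (1.15 and 0.37), HSPA8 far above it (0.60 and 1.97), and HSPB8 at the bottom (-0.05 and -1.96).

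MSP moved few of these genes past the test. The MSP libraries at 1 h agreed least with each other, with a chi-square per degree of freedom of 7.0 to 19.4 between pairs. Within the other groups it was at most 5.56, and the part of this spread in the calls was not tested. At 1 h, 1 of 46 genes was higher, DNAJB1, and 0 were lower, where 0.78% of all genes tested were higher and 0.0536% lower by edgeR adjusted p. At an unadjusted p under 0.05, 3 were higher and 1 lower, and in DESeq2 2 and 0. Here and below no share of all genes tested is given for the unadjusted p or for DESeq2, so those counts have no background. DNAJB1 had 125, 125 and 123 CPM in vehicle and 142, 139.8 and 146 CPM after MSP, a log2 fold change of 0.20 (SE 0.04, edgeR adjusted p 0.00548) with no overlap. The call was lost without replicate 3 of the vehicle (0.19, edgeR adjusted p 0.0513) and in a fit of the groups compared alone (0.19, edgeR adjusted p 0.146). BAG3, the second gene called by DESeq2 (adjusted p 0.0138), had 299.9, 303 and 311 CPM after MSP, a log2 fold change of 0.12 (SE 0.04, edgeR adjusted p 0.198) in edgeR. HSPA8 had 571, 579 and 589 CPM, a log2 fold change of 0.12 (SE 0.05, edgeR adjusted p 0.482).

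At 4 h after MSP 1 of 46 genes was higher, HSPA8, and 0 were lower, where 0.774% of all genes tested were higher and 0.292% lower by edgeR adjusted p. At an unadjusted p under 0.05, 11 were higher and 3 lower, and in DESeq2 4 and 1, again without a share of all genes tested. HSPA8 had 1028, 919 and 919 CPM in vehicle and 1054, 1155 and 1083 CPM after MSP, a log2 fold change of 0.20 (SE 0.05, edgeR adjusted p 0.0342). All 3 MSP libraries were above the vehicle libraries, the lowest at 1054 against the highest at 1028 CPM. The call was lost when replicate 2 or 3 of the vehicle or of MSP was left out, with edgeR adjusted p of 0.0774 to 0.338. HSPA5 had 959, 927 and 936 CPM in vehicle and 1005, 1067 and 1040.2 CPM after MSP, a log2 fold change of 0.14 (SE 0.04, edgeR adjusted p 0.0803), and passed in DESeq2 (adjusted p 0.0156), as did STIP1 (0.0267), MANF (0.0483) and, as lower, HSPB8 (0.0187). In edgeR HSPA5 passed with library totals (adjusted p 0.0234), with no filter (0.0278) and with only the groups compared (0.0411), and STIP1 with library totals (0.0444). Under that scaling 3 genes (6.5%) were thus higher, beside 0.9% of all genes tested. HSPB8 passed in edgeR with only the groups compared (adjusted p 0.0386). DNAJB1, with 131, 129 and 132 CPM after MSP, had a log2 fold change of -0.09 (SE 0.04, edgeR adjusted p 0.379). These values lay below vehicle where its 1 h values lay above. HSPB8 had 16.8, 16.4 and 16.5 CPM after MSP, a log2 fold change of -0.25 (SE 0.07, edgeR adjusted p 0.0674).

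XBP1, HERPUD1 and DNAJB9 had log2 fold changes of 0.04, 0.01 and -0.13 at 4 h after MSP, HSF1 of 0.09, HSPA1A of -0.02, HSPA1B of -0.04, HSP90AA1 of 0.01 and HSP90B1 of 0.02, none past the test. At 1 h the same 8 genes lay between -0.20 (DNAJB9) and 0.06 (XBP1). Over the 46 genes the median log2 fold change after MSP was 0.00 at 1 h and 0.04 at 4 h. The MSP response at 4 h minus that at 1 h passed for 1 gene, DNAJB1, at -0.29 (SE 0.06, edgeR adjusted p 0.0106), and no gene was higher (0 in edgeR and in DESeq2, and 3 higher and 4 lower at an unadjusted p under 0.05). Of all genes tested 0.0476% were higher and 0.274% lower in that difference by edgeR adjusted p.

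Set directly against MSP, where the vehicle libraries enter only the estimate of the spread, HGF at 1 h had 19 genes higher and 0 lower (DESeq2 also 19 and 0, and 21 and 0 at an unadjusted p under 0.05), where 11.4% of all genes tested were higher and 6.36% lower. DNAJB1 differed most at 0.96 (SE 0.04, edgeR adjusted p 1.68e-18), followed by HSPA8 at 0.48 (SE 0.05), DNAJA1 at 0.46 (SE 0.04), DNAJB6 at 0.41 (SE 0.04) and HERPUD1 at 0.34 (SE 0.05) on the log2 scale. A fit of only these groups gave 11 higher, and leaving out 1 library gave 13 to 17. With library totals 8 (17.4%) were higher and 5 (10.9%) lower, beside 7.7% and 18.5% of all genes tested. The share of higher among all called genes went from 64.1% to 29.4%. At 4 h 39 were higher and 4 lower, where 32.7% of all genes tested were higher and 33.8% lower. HSPA8 was 3.41-fold higher in HGF than in MSP, a log2 difference of 1.77 (SE 0.05, edgeR adjusted p 1.3e-23). CHORDC1, SDF2L1, HSPH1 and STIP1 followed at 1.67, 1.63, 1.52 and 1.22. Lower in HGF than in MSP were HSPB8 at -1.71, DNAJB4 at -0.75, HSPA1B at -0.22 and HSPB1 at -0.18. DNAJB4 lost its call when replicate 3 of HGF (edgeR adjusted p 0.105) or replicate 2 of MSP (edgeR adjusted p 0.0504) was left out. Library totals gave 33 (71.7%) higher and 7 (15.2%) lower at 4 h, beside 19.8% and 53.4% of all genes tested. The share of higher among all called genes went from 49.2% to 27.0%.

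Vehicle-treated cells also differed between the times, which is the background against which the 4 h values stand. From 1 h to 4 h 24 of the 46 genes were higher and 2 lower, where 10.9% of all genes tested were higher and 9.99% lower. HSPA8 rose from 537, 568 and 491 CPM to 1028, 919 and 919 CPM without any ligand, a log2 fold change of 0.84 (SE 0.05, edgeR adjusted p 1.47e-13). CHORDC1, HSPB1, AHSA1 and HSPA1B followed with 0.40, 0.34, 0.33 and 0.33. HSPA1A rose by 0.29 and HSPA5 by 0.29 on the log2 scale, so that both stress-inducible HSP70 genes were higher at 4 h than at 1 h in vehicle. DNAJC3 fell by 0.27 and EDEM1 by 0.21. Of the 24 higher genes 18 were among the 26 cytosolic and mitochondrial genes and 6 among the 20 ER genes. A library total in place of TMM factors left the counts at 24 and 2, beside 8.8% higher and 12.2% lower of all genes tested. The share of higher among all called genes went from 52.3% to 41.7%. The 1 h and 4 h vehicle groups are the controls of the ligand comparisons, so the same libraries enter those values.

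Genes of the same machinery outside the 46 were followed in a pair of lists. Of 51 further cytosolic and mitochondrial chaperone genes 48 were tested, and 31 were higher and 7 lower after HGF at 4 h, with a median log2 fold change of 0.39. These are 64.6% and 14.6% of the 48, beside 33.1% and 34.8% of all genes tested. At 1 h 9 were higher and 1 lower (18.8% and 2.1%), beside 13.8% and 7.16% of all genes tested, so the share of higher genes was near the background. The TRiC subunits CCT4, CCT6A, CCT7 and CCT8 rose by 0.66, 0.97, 0.57 and 0.87 on the log2 scale at 4 h, beside the 4 subunits among the 46. FKBP4, an HSP90 immunophilin, rose by 1.42 and CDC37, which brings kinases to HSP90, by 0.92. GRPEL1, the exchange factor of the mitochondrial HSP70, rose by 0.72 at 1 h and by 2.15 at 4 h, the largest value of the list at 4 h. HSPA12A fell by 1.67 and BAG1, another exchange factor of HSP70, by 0.41 at 4 h. These examples, other than the TRiC subunits, were picked with their values in view. After MSP none of the 48 passed at either time in edgeR (3 higher and 0 lower at 1 h and 7 higher and 0 lower at 4 h at an unadjusted p under 0.05, and in DESeq2 0 and 0 at 1 h and 3 higher and 0 lower at 4 h).

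Of 55 further genes of ER folding, the UPR and ER-associated degradation 50 were tested, and 27 were higher and 8 lower after HGF at 4 h, with a median log2 fold change of 0.19. These are 54.0% and 16.0% of the 50, beside the same background of 33.1% and 34.8%. At 1 h 14 were higher and 1 lower (28.0% and 2.0%), beside 13.8% and 7.16%. Of the UPR sensors, ERN1, the gene for IRE1, rose by 0.19 at 1 h and 0.89 at 4 h, whereas ATF6 (0.10, edgeR adjusted p 0.0526) and EIF2AK3, the gene for PERK (-0.13, edgeR adjusted p 0.0546), did not pass at 4 h. With library totals ERN1 did not pass at 1 h (0.09, edgeR adjusted p 0.298) and rose by 0.60 at 4 h, and ATF6 and EIF2AK3 were lower at 4 h, at -0.19 and -0.42. The genes of the PERK branch PPP1R15A, DDIT3 and ATF4, picked with their values in view, had larger values at 1 h than at 4 h. PPP1R15A, the phosphatase subunit GADD34 that ends its translational block, had a log2 fold change of 1.59 at 1 h and 0.28 at 4 h, and its difference between the times was -1.31 (SE 0.06, edgeR adjusted p 8.8e-18). DDIT3, the gene for CHOP, had 0.61 at 1 h and -0.45 at 4 h, a difference of -1.06, and ATF4 had 0.40 and 0.18, a difference of -0.22. With library totals these 3 differences were -1.50, -1.25 and -0.41, and the 4 h value of ATF4 turned to -0.11 (edgeR adjusted p 0.0266) and that of PPP1R15A to -0.01 (edgeR adjusted p 0.782). SELENOS, a membrane partner of the degradation machinery, rose by 0.54 and 1.34. After MSP 1 of the 50 passed at 1 h, PPP1R15A at 0.36, and none at 4 h (0 in DESeq2, and 0 higher and 1 lower at an unadjusted p under 0.05). Under library totals the first list had 23 higher and 15 lower at 4 h after HGF (47.9% and 31.2%) and the second 17 higher (34.0%) and 25 lower, beside 21.2% and 52.0% of all genes tested.

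Promoter elements were set beside the response. The calls used here are those with TMM factors, where 33.1% of all genes tested were higher and 34.8% lower at 4 h after HGF. Outside the ER the 7 genes with a heat shock element of 3 units (the stretches shown above) were all higher at 4 h after HGF, with a median log2 fold change of 0.93 and a range from 0.68 (DNAJB6) to 1.97 (HSPA8). Of the 17 genes outside the ER with a window and no such element 11 were higher and 4 lower, with a median of 0.68 and a range from -1.96 to 1.59. In this second group are HSPA1A (0.01), HSPA1B (-0.26) and DNAJB1 (0.37), which matched the shorter 2-unit form. It also holds HSPH1 (1.59), STIP1 (1.37) and CCT2 (1.28). Only exact letters within the window were searched, so elements with imperfect units or farther away would be missed. Among the ER genes the 7 with an ER stress element were all higher at 4 h, with a median of 0.53 and a range from 0.19 (CANX) to 1.02 (HSPA5). The 12 without it had 11 higher, a median of 0.70 and a range from 0.04 to 1.71. With library totals CALR (0.02, edgeR adjusted p 0.582), CANX (-0.11, 0.0571) and PDIA6 (0.08, 0.0652), which have the element, did not pass. Of those without it, SEL1L (-0.08) did not pass, and P4HB (-0.16) and HSPA13 (-0.25) were lower under that scaling. At 1 h the median was 0.22 with and 0.12 without the heat shock element, and 0.02 with and 0.03 without the ER stress element. The ranges with and without an element overlapped in each case.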

How the data were processed

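Poly(A) RNA of 18 libraries (KAPA mRNA HyperPrep, each sequenced across 2 lanes and held as 1 column) was measured as read counts per gene. The authors deposited raw counts for 58395 Ensembl identifiers. STAR, featureCounts and Subread are named in the submitters' processing notes. No label or note used here gives the genome build, annotation or strand setting. Reads of overlapping genes on opposite strands may not be separated. Symbols were at hand for 57754 identifiers, and exon lengths and overlaps came from GENCODE 29 (GRCh38).

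Counts were tested with edgeR 4.0.16 in R 4.3.3 (TMM factors, filterByExpr with a minimum count of 10 and total of 15, robust quasi-likelihood test, 1 mean per group over 18 libraries, 12 residual degrees of freedom). The Benjamini-Hochberg adjustment ran over 16794 genes with a threshold of 0.05. The biological coefficient of variation was 5.2%. A count of 3 corresponds to 0.0619 to 0.0982 CPM, which covers counting error only. Replicates differed beyond counting error (chi-square per degree of freedom 2.9 to 19.4), so none was taken for a repeated library. The highest values were those of MSP at 1 h, at 7.0, 9.98 and 19.4, and the other groups reached at most 5.56. With 3 against 3 libraries an exact permutation test of 1 gene cannot go below 0.1.

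The members and lists were chosen with earlier results of these data known. Any member could be named for a ligand against vehicle. Values by library were given for up to 6 rises and 6 falls past the threshold and for 11 fixed genes, and other comparisons named up to 5 each way. Counts were simulated for HGF at 4 h (16465 genes, 50 changed per size). There 44% of log2 changes of 0.32, 74% of 0.58, 78% of 1 and 94% of 2 were recovered, with 4% false calls. In the data far more genes passed, 5555 higher and 5846 lower of 16794, which loosens the adjusted threshold. The members also had a median of 147 CPM in vehicle at 1 h, against 13.0 CPM over all genes tested. These rates therefore do not give the power or the false calls for the members, which were not tested. Alternatives were library totals, DESeq2 size factors, DESeq2 1.42.0, no filter, no robust estimation, only the groups compared, a replicate block and each library left out.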

Additional observations from a re-analysis of the deposited data

Results flagged for a closer look

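Tests of the interaction of ligand with time in edgeR picked out genes whose response differed between 1 h and 4 h. For HGF the response was larger at 4 h for SDF2L1 (by 1.68 on the log2 scale), CHORDC1 (1.56), HSPH1 (1.41), HSPA8 (1.37) and STIP1 (1.15). It was lower at 4 h than at 1 h for HSPB8 (-1.92), DNAJB4 (-1.35), DNAJB1 (-0.79), BAG3 (-0.36) and HSPB1 (-0.36). For MSP the difference passed for DNAJB1 (-0.29).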

How the results depend on the processing

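Scaling moved the HGF comparisons most. With library totals HGF at 1 h had 9 genes higher and 9 lower, HGF at 4 h 8 lower, MSP at 4 h 3 higher, HGF against MSP 8 higher and 5 lower at 1 h and 7 lower at 4 h. The shares of all genes tested that belong beside these counts are given above. At 4 h after HGF 5 values went below 0: HSPA1A -0.28, HSPA13 -0.25 and P4HB -0.16, which passed, and CANX -0.11 and SEL1L -0.08, which did not. For genes lower in HGF at 1 h (1 as reported), no filter gave 3, no robust estimation 0, the replicate block 0 and a fit of only the groups compared 2. For MSP at 1 h only the groups compared gave 0 higher and DESeq2 2. For MSP at 4 h no filter gave 2 higher, only the groups compared 2 higher and 1 lower, DESeq2 4 higher and 1 lower, and the replicate block 1 lower. HGF against MSP at 1 h had 11 higher with only the groups compared, and the MSP response over time had 2 lower in DESeq2. Beyond what the construction of each alternative shows, the cause was not tested.

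With 1 library left out, HGF had 11 to 17 higher and 0 to 1 lower at 1 h, and 38 to 39 higher and 3 to 4 lower at 4 h. MSP had 0 to 1 higher at 1 h (0 without vehicle replicate 3) and 0 to 2 higher at 4 h (2 without vehicle replicate 1, 0 without replicate 2 or 3 of vehicle or MSP). HGF against MSP had 13 to 17 higher and 0 to 1 lower at 1 h (1 lower without MSP replicate 3), and 39 to 40 higher and 3 to 4 lower at 4 h. Vehicle over time had 19 to 26 higher and 2 lower, the HGF response over time 35 to 37 higher and 6 lower, and the MSP response over time 0 higher and 1 lower.

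Libraries with the same replicate number did not deviate together (r from -0.06 to 0.12 over 45 pairs, 1 of them over 0.1), so the numbers were not taken as pairs, and besides the counts above the block gave 18 higher for HGF at 1 h and 26 higher for vehicle over time. Genes under about 50 counts, as DNAJB4, are limited by depth.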
